A study of Mus musculus with 8 samples.

Results

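The 10 genes described here are the interleukin-1 ligands Il1a and Il1b, the receptor antagonist Il1rn, the decoy receptor Il1r2, interleukin-18 (Il18) with its binding protein Il18bp, and 4 genes of the inflammasome and its caspases, Nlrp3, Casp1, Casp4 and Pycard. They were chosen by name out of 30406 genes shared by all libraries, and 10 of 10 were counted. Their unique molecular identifiers (UMIs, which tag single captured RNA molecules) were summed per library over the cells of each of the 21 clusters named by the authors, and a level is given as UMIs of the gene per 1000000 UMIs of those cells (CPM). The 8 single-cell RNA-seq libraries came from adult male C57BL/6 mice of 10 to 16 weeks, either controls without stroke or mice after transient middle cerebral artery occlusion (MCAO), a model in which blood flow to 1 hemisphere is blocked with a filament and then restored. The study's methods give naive mice as controls for single-cell sequencing, whereas a figure legend names sham-operated mice. If the controls were naive, surgery and occlusion cannot be told apart in any comparison with them. An antibody against CD45 was injected into the blood shortly before the mice were killed, and leukocytes that carried CD45 but had not taken up the injected antibody (CD45iv-CD45+) were sorted from brain parenchyma, pia mater and dura mater, which leaves out most cells inside vessels. There was 1 library each of control brain, control pia and control dura, 2 of brain at 24 h, 1 each of pia and dura at 24 h, and 1 of brain at 72 h. The labels do not give the number of mice behind a library, and the study's notes on replication describe animals pooled per compartment after a repeat without tying them to libraries, so libraries were the replicates and p-values measure only the spread between them.

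Interleukin-1 alpha and interleukin-1 beta act on the same receptor. Interleukin-1 beta and interleukin-18 are made as inactive precursors that caspase-1 cuts after it is brought together with the sensor NLRP3 and the adaptor ASC (the product of Pycard), whereas interleukin-1 alpha is active without that cut. Caspase-11, the product of Casp4, binds bacterial lipopolysaccharide in the cytosol. IL-1RA (Il1rn) occupies the receptor without signaling, IL-1R2 (Il1r2) binds the ligands without signaling, and IL-18BP holds interleukin-18 in solution. The activity of interleukin-1 beta and interleukin-18 is set partly by protein cleavage, which RNA levels do not show.

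The libraries held 36854 barcodes, of which 32457 carried a cluster name, and total UMIs ran from 6591898 to 20754181 per library. A median annotated cell had from 1071.5 to 2501 UMIs. Brain 24 h replicate 2 and brain 72 h stood apart: their gene list was shorter (31053 against 32285 genes) and they shared 13 cell barcodes with each other and 0 to 2 with any of the other 6 libraries, which shared 12 to 43 with each other. An older and a newer version of the library kit were used, and the sample list of the study gives the newer one for brain at 72 h and dura at 24 h, which is not the division made by gene list and barcodes. The kit of each library was therefore not settled, and kit, library and condition cannot be told apart in comparisons with these 3 libraries. Brain was digested for 20 min and pia and dura for 45 min, so for brain against the border tissues, tissue and digestion time cannot be told apart. The pia library of the control mice bears brain parenchyma in its title but pia mater in its other labels, and was used as pia. Cluster names went against their markers in some libraries. In CAM_1, named for CNS-associated macrophages, 4 microglia markers (Tmem119, P2ry12, Sparc, Cx3cr1) summed to 11976 CPM and 5 macrophage markers (Pf4, Mrc1, Lyve1, Apoe, Ms4a7) to 1371 CPM in control brain, against 391 and 63523 CPM in control pia. Micro_2 of control pia held 1219 CPM of the microglia and 30682 CPM of the macrophage markers. Granulo_2 carried neutrophil markers at 124888 CPM in brain 24 h replicate 1 and 204969.9 CPM in dura at 24 h, while Granulo_1 held more of the monocyte than of the neutrophil markers (9423 against 3384 CPM in brain 24 h replicate 2). The clusters are therefore called by the authors' names only, and a gene's level in a cluster of brain and of pia may be that of different cells.

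The genes lie on 5 chromosomes of GRCm38, on which Il1a (chr2:129299610-129309972, minus strand) and Il1b (chr2:129364570-129371139, minus strand) are 54597 bases apart and Casp1 (chr9:5298517-5307265) and Casp4 (chr9:5308828-5336783) 1562 bases apart. The 250 bases before the RefSeq start sites (GRCm38.p6) of Il1a, Il1b and Il1rn are shown because these 3 genes of chromosome 2 had different leading clusters by mean level (Micro_3, mDC2 and Granulo_2), as given below for each. The leading clusters of Il1b and Il1rn were not separated from the next ones. Capitals mark matches, on either strand, to the AP-1 form TGANTCA or the PU.1 form GAGGAAG, and the NF-kappaB form GGGANTTTC was also searched.
Il1a, chr2:129309973-129310222, minus strand: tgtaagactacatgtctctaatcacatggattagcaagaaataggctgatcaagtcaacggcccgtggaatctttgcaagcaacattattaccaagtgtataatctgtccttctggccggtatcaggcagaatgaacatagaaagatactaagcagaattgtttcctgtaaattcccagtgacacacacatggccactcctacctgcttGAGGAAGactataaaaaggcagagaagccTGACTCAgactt
Il1b, chr2:129371140-129371389, minus strand: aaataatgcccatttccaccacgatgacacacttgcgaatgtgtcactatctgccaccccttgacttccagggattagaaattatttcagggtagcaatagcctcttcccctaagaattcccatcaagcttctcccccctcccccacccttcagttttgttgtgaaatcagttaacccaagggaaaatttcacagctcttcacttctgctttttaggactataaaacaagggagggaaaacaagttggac
Il1rn, chr2:24336610-24336859, plus strand: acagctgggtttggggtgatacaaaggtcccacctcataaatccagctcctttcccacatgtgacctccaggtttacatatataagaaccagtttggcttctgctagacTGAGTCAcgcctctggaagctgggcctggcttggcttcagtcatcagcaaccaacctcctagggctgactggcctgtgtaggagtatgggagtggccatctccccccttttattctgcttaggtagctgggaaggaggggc
In windows of 300 bases (250 before and 50 after the start) Il1a held the AP-1 form 12 bases and the PU.1 form 41 bases before its start, and Il1rn held the AP-1 form 141 bases before it. Among all 32817 such windows 7.81% held the AP-1 form, 13.6% the PU.1 form and 1.11% the NF-kappaB form. Of the 10 genes, 2 held the first, 3 the second (Il1a, Nlrp3, Pycard) and 0 the third, and no match for Il1b says only that these letters are not in this window. Some genes had more than 1 window, and by windows, the measure of the background, these were 2, 3 and 0 of 14.

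Across all annotated cells, Il1b, Il1rn and Il1r2 were near the lower limit of the counts in control brain but not in control pia and dura, whereas Il1a was read in control brain as well. Il1b stood at 3.02 CPM (21 UMIs) in control brain, 97.6 and 381 CPM in the brain libraries at 24 h and 277 CPM at 72 h. It stood at 829.6 and 801 CPM in control and 24 h pia and 550.2 and 525 CPM in control and 24 h dura. Relative to control brain, Il1b was higher by a factor of 32.4 (95% interval 21.04 to 52.6) and 126 (95% interval 82.6 to 205) in the libraries at 24 h, with intervals for counting error only. In pia the same ratio was 0.965 (95% interval 0.929 to 1.0) and in dura 0.953 (95% interval 0.91 to 0.999). These sums mix how many cells of a type were caught with how much each held, and fewer cells of a type and less RNA per cell cannot be told apart in them. The clusters Granulo_1 and Granulo_2 made up 0.209% of annotated cells in control brain, 2.9 and 11.2% at 24 h and 27.9% at 72 h. Without these clusters Il1b in brain was still 67.1 and 211 CPM at 24 h against 2.73 CPM in control.

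Il1rn, which blocks the receptor, showed the steepest change in brain. It had 1 UMI in control brain, then 242 and 77.8 CPM at 24 h and 21.7 CPM at 72 h. Pia held 108 CPM in control and 169.7 CPM at 24 h, and dura 74.1 and 108 CPM. With 1 UMI below it, the ratio at 24 h was 1683 (95% interval 302 to 66510.2) and 542 (95% interval 96.9 to 21457), so its size is poorly known. Il1r2, the decoy receptor, was at 2.01 CPM (14 UMIs) in control brain, 42.6 and 127 CPM at 24 h and 96.7 CPM at 72 h. It was also higher at 24 h than in control in pia (271 against 30.1 CPM) and dura (307 against 143 CPM). Il1r2 and Il1rn were thus higher at 24 h in all 4 pairs of a 24 h library with the control of its tissue, whereas Il1b was higher only in the 2 pairs of brain. Both pairs of brain share 1 control library, in which Il1rn had 1 UMI and Il1r2 14, so the 4 pairs are not independent.

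In brain the other genes moved less. Il1a was 119 CPM in control brain, 163 and 108 CPM at 24 h and 35.3 CPM at 72 h, a 72 h level of 0.296 (95% interval 0.265 to 0.329) times control. Nlrp3 was 137, 198, 179 and 78.5 CPM in the same order. Pycard was the highest of the inflammasome genes in brain, at 283, 339, 267 and 384 CPM, and in pia went from 115 to 269 CPM. CPM of 3' tags carries no length term, so these orders between genes hold for tags. Il18 was 56.3 and 46.98 CPM in control brain and 24 h replicate 1 but 10.5 and 13.6 CPM in the libraries with the shorter gene list, and Casp1 showed the same split (53.6 and 46.9 against 18.7 and 18.6 CPM). At 72 h, time and library set cannot be told apart for these low values. At 24 h the replicates differed by more than counting error. In pia and dura Casp1 was also lower at 24 h, at 56.1 against 87.8 CPM and 40.5 against 66.8 CPM. Each 24 h library was thus below the control of its tissue, though in brain replicate 1 the ratio was 0.875 (95% interval 0.759 to 1.01). Il18 in these border tissues was 36.8 against 41.2 CPM in pia and 25.5 against 31.5 CPM in dura.

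**Figure D1:**
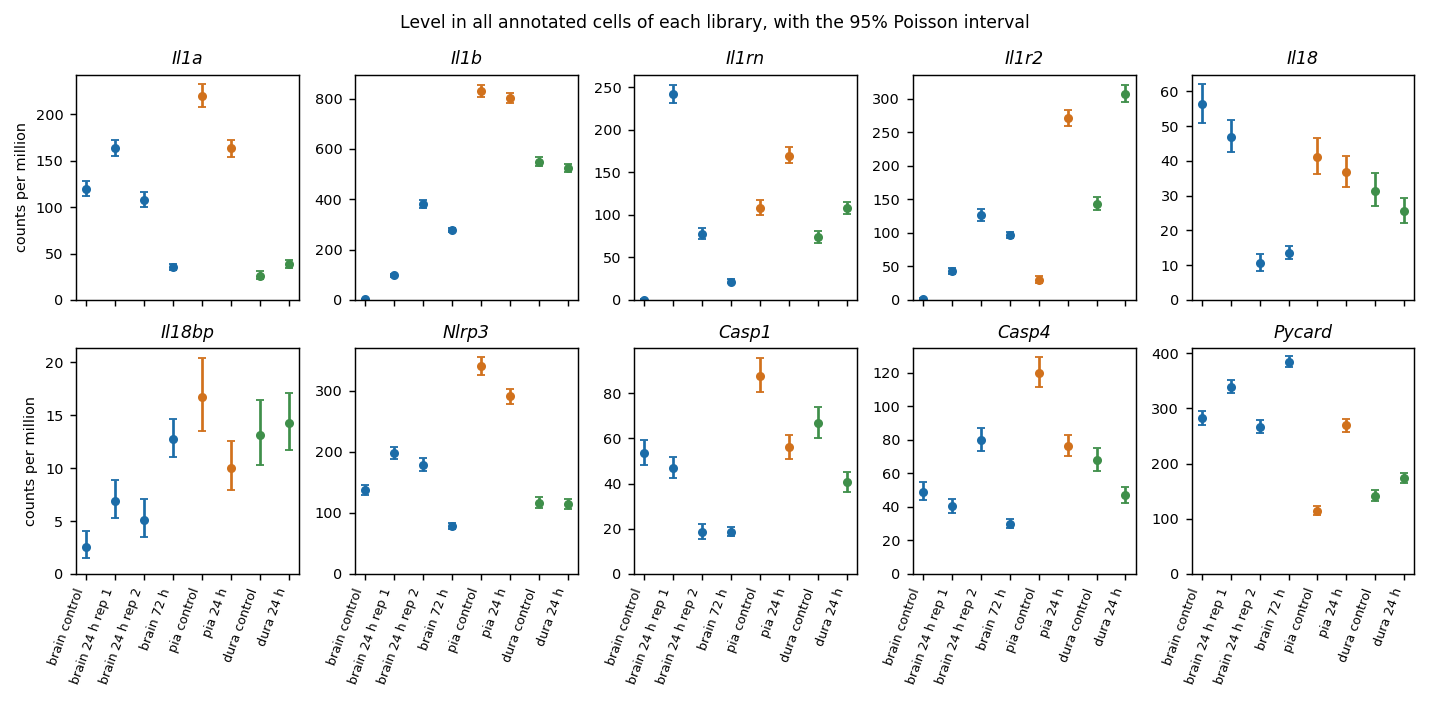
Level of each gene in all annotated cells (vertical axis, CPM from 0, scale set per gene) in each of the 8 libraries (horizontal axis), with blue for brain, orange for pia and green for dura and bars for the 95% Poisson interval. Il1b, Il1rn and Il1r2 lie at 3.02 CPM or less in control brain, and Il18 and Casp1 are lowest of the brain libraries in 24 h replicate 2 and at 72 h.

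Over the clusters, the genes fell into different cell sets. Il1a was highest in microglia clusters, Il1b in dendritic, Granulo and macrophage clusters, Il1r2 in Granulo_2, and Il18 and Casp1 were spread over most myeloid clusters, with a lower mean in Granulo_2 than in Granulo_1. Means below are over libraries in which the cluster had 30 cells or more, and the order was set over clusters with 3 or more such libraries. The number of common libraries in which a cluster lay above the next is given with it.

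**Figure D2:**
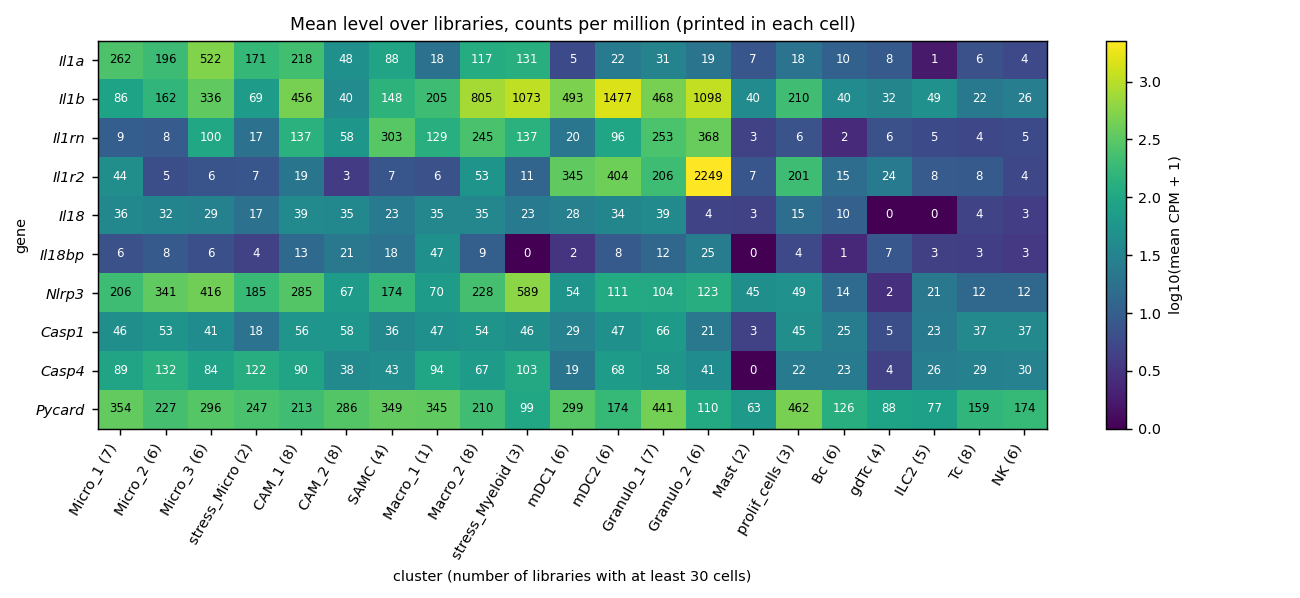
Mean CPM over libraries (printed in each cell and colored as log10 of mean CPM + 1) for the 10 genes (rows) in the 21 clusters (columns, with the number of libraries of at least 30 cells in brackets). Il1r2 peaks in Granulo_2 at 2249 CPM and Il1b in mDC2 at 1477 CPM, while Il18 stays at 39.1 CPM or lower in every cluster with 3 or more libraries.

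Il1a, the ligand that needs no caspase-1, was led by Micro_3 at 522 ± 347 CPM (SD, n = 6), above the next cluster, Micro_1 (262 ± 176 CPM (SD, n = 7)), in 6 of 6 libraries. Micro_3 held 203 CPM in control brain, 334 and 365 CPM at 24 h, 308 CPM at 72 h. In pia it held 1030.4 CPM in control and 893 CPM at 24 h. There it also carried more of the macrophage than of the microglia markers (16336 against 3596 CPM in control and 4177 against 2762 CPM at 24 h), most of it Apoe, and their part in the Il1a level was not tested. Both pia values of Il1a lay above all 4 of brain. Micro_1, Micro_2 and CAM_1 (218 ± 126 CPM (SD, n = 8)) did not differ beyond their spread. Summed over the 4 microglia clusters of brain, Il1a was 117 CPM in control. It was 157 and 257 CPM in 24 h replicates 1 and 2 and 250.2 CPM at 72 h. The lower level at 72 h in all cells was not seen there. In Micro_1 Il1a was 87.3 and 90.5 CPM in control and 24 h replicate 1, but 211 and 229 CPM in 24 h replicate 2 and at 72 h. Micro_2 showed the same split (124 and 137 against 235 and 250 CPM), whereas Micro_3 was above control in both replicates. At 72 h, time and library set cannot be told apart for these levels. Microglia clusters were 86.9% of annotated cells in control and 16.98% at 72 h. Macro_2, the second macrophage cluster, held 543 CPM in brain 24 h replicate 1 but 13.2 CPM in replicate 2, so its mean of 117 ± 179 CPM (SD, n = 8) rested on 1 library, and the other 7 lay between 7.52 and 151 CPM.

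The named clusters that held Il1a also differed by tissue. Microglia clusters held 85.7% of its UMIs in control brain, 54.2 and 81.2% at 24 h and 71.8% at 72 h. Their share of all UMIs was 87.7, 56.4, 34.1 and 10.1% in the same order. Only in 24 h replicate 2 and at 72 h did they thus hold more of Il1a than of all UMIs. CAM and Macro clusters held 75.1% of its UMIs in control pia and 80.00% in control dura, against 71.3 and 38.1% of all UMIs. CAM_1, which carried mostly microglia markers in control brain, held 94 of 832 Il1a UMIs there and 369 of 1424 in 24 h replicate 1. In that replicate SAMC held 96 and Macro_2 86 of the Il1a UMIs. The part of cluster names and of cell composition in its lower microglia share was not tested. With each cell thinned to 1000 UMIs, 30.9 ± 13.9% (SD, n = 6) of Micro_3 cells had an Il1a UMI, against 0.274 ± 0.613% (SD, n = 5) of B cells (Bc), which serve as the background of free RNA.

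Il1b was led by mDC2, a dendritic cell cluster, at 1477 ± 484 CPM (SD, n = 6). By library mDC2 held 1318 CPM in brain 24 h replicate 2, 605 CPM at 72 h. It held 1818 and 1451 CPM in control and 24 h pia and 1909 and 1762 CPM in control and 24 h dura. Granulo_2 (1098 ± 817 CPM (SD, n = 6)), stress_Myeloid (1073 ± 936 CPM (SD, n = 3)) and Macro_2 (805 ± 434 CPM (SD, n = 8)) came next, and mDC2 was above Granulo_2 in 3 of 5 libraries, so this order does not separate them.

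Granulo_2, the cluster with neutrophil markers, held less Il1b in dura than in brain or pia. It held 1302 and 1352 CPM in brain at 24 h, 2268 CPM in brain at 72 h and 1362 CPM in pia at 24 h, but 142 and 159.7 CPM in control and 24 h dura. The ranges of dura and of the other libraries did not overlap. At 1000 UMIs per cell, 48.9% of 188 cells had an Il1b UMI in brain 24 h replicate 2 and 27.4% of 135 at 72 h (exact 95% intervals 41.6 to 56.3% and 20.1 to 35.7%). In dura these were 5.5% of 109 cells in control and 6.97% of 244 at 24 h (2.05 to 11.6% and 4.11 to 10.9%), next to 3.17 and 4.96% of B cells in the same libraries. These shares cover 188 of 202 Granulo_2 cells in brain 24 h replicate 2 but only 135 of 373 at 72 h. In dura they cover 109 of 146 and 244 of 359. Within brain, 72 h was the highest in CPM but lower than 24 h replicate 2 in the share of cells, so no order in time is read from them. The control brain and control pia libraries held 4 and 10 Granulo_2 cells and give no level.

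Macrophage clusters held Il1b in control pia and dura too. CAM_1 was at 2.62 CPM in control brain, 49.96, 374 and 232 CPM in the brain libraries after MCAO. It was at 761 and 907 CPM in pia and 418 and 904 CPM in dura. Its macrophage markers also varied within brain, from 1371 CPM in control to 554, 4082 and 37724 CPM in the same order. Their part in the change was not tested. Macro_2 went from 48.4 CPM in control brain (35 cells) to 1061 and 628 CPM at 24 h and 447 CPM at 72 h. It was at 1085 and 1425 CPM in control and 24 h pia and at 720.1 and 1026 CPM in dura.

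Among the microglia clusters of brain, Il1b was low in Micro_1 at every time, higher in Micro_3, and at 72 h highest in stress_Micro. Micro_1 was at 0.657 CPM in control, 6.7 and 11.5 CPM at 24 h and 8.36 CPM at 72 h, against 120.4 and 195 CPM in pia, where B cells held 53.4 and 93.00 CPM. Heat shock genes, a sign of cell stress, summed to 8183 and 12966 CPM in Micro_1 of control and 24 h pia and to 4207 CPM in control brain, and their part in the difference was not tested. Micro_3 held more than Micro_1 and Micro_2 in each of the 4 brain libraries, at 6.96 CPM in control, 133 and 162 CPM at 24 h and 21.99 CPM at 72 h. stress_Micro, which had 30 cells or more in 2 libraries, held 23.5 CPM in 24 h replicate 2 and 115 CPM (20 UMIs) at 72 h, the opposite order to Micro_3. All 4 microglia clusters together held 61.9% of the 21 UMIs of control brain but 19.95 and 4.32% at 24 h and 1.03% at 72 h. Granulo_1 and Granulo_2 held 34.2 and 58.4% at 24 h and 44.2% at 72 h.

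**Figure D3:**
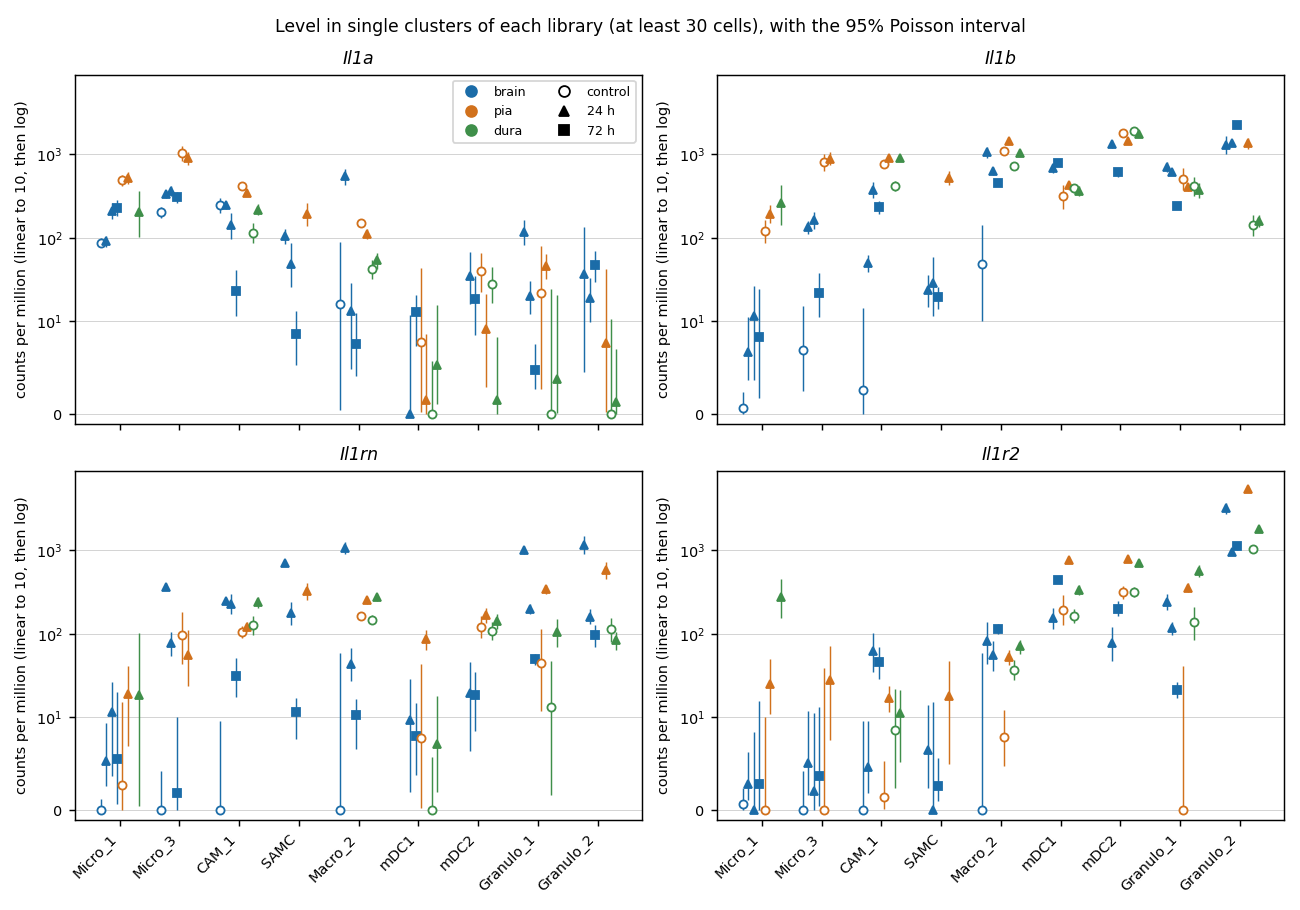
CPM of Il1a, Il1b, Il1rn and Il1r2 (vertical axis, linear to 10 and then logarithmic) in 9 clusters (horizontal axis), 1 point per library with at least 30 cells, with blue for brain, orange for pia and green for dura, open circles for control, triangles for 24 h and squares for 72 h, and bars for the 95% Poisson interval. In Granulo_2 the dura points for Il1b sit at 142 and 160 CPM, below the brain and pia points.

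Il1rn was read in Granulo_1, Granulo_2, SAMC and macrophage clusters. Its leading cluster by mean was Granulo_2 at 368 ± 437 CPM (SD, n = 6). SAMC (303 ± 293 CPM (SD, n = 4)), Granulo_1 (253 ± 356 CPM (SD, n = 7)) and Macro_2 (245 ± 348 CPM (SD, n = 8)) followed, with SDs about as large as the means. In common libraries Granulo_2 lay above SAMC in 3 of 4 and Granulo_1 above Macro_2 in 3 of 7. SAMC lay above Granulo_1 in 0 of 4, against the order of their means, so the means do not order these clusters. SAMC, which the authors named stroke-associated myeloid cells, held 699 and 177 CPM in brain at 24 h, 11.7 CPM at 72 h and 324 CPM in pia at 24 h. Granulo_1 held 1017, 198 and 49.5 CPM in the same brain libraries. In brain, for both clusters, replicate 1 was highest and 72 h lowest. Macro_2 showed the widest gap between the brain replicates at 24 h, 1067 against 44.1 CPM, and the gap in Granulo_2 was 1172 against 161 CPM. In control brain Il1rn had 0 UMIs in each of Micro_1, Micro_2, Micro_3, CAM_1, CAM_2 and Macro_2. Summed over the microglia clusters it then reached 78.01 and 25.7 CPM at 24 h and 5.49 CPM at 72 h, at least 159-fold, 52.3-fold and 11.2-fold higher than the level that 3 counts over these control cells would give. At 24 h most of it was in Micro_3, at 368 and 77.03 CPM at 24 h against 5.27 and 11.5 CPM in Micro_1. At 72 h it was not, with 1.83 CPM (1 UMI) in Micro_3 and 5.58, 7.14 and 11.5 CPM in Micro_1, Micro_2 and stress_Micro. In pia and dura, Macro_2 held 61.8 and 32.5% and 53.3 and 49.8% of the UMIs in control and at 24 h.

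By mean level, Il1r2 was the gene most tied to 1 cluster. Granulo_2 held 2249 ± 1770.0 CPM (SD, n = 6) and lay above the next cluster, mDC2 (404 ± 286 CPM (SD, n = 6)), in 5 of 5 libraries. Its levels were 3182 and 955 CPM in brain at 24 h, 1112 CPM at 72 h, 5431 CPM in pia at 24 h and 1029 and 1786 CPM in control and 24 h dura. The dura, where Granulo_2 had little Il1b, was thus within the range of brain for Il1r2. mDC1 held 345 ± 237 CPM (SD, n = 6) and Macro_2 52.6 ± 38.1 CPM (SD, n = 8), whereas Micro_1, Micro_2 and Micro_3 of brain held 5.36 CPM or less in every library. The dendritic clusters mDC1 and mDC2 were higher at 24 h than in control in both border tissues. There mDC2 held 793 against 316 CPM in pia and 715 against 321 CPM in dura. For mDC1 these were 769 against 196 CPM and 335 against 165 CPM. With 1 library on each side of each of these pairs there is no test. By share of UMIs, mDC1 with mDC2 held more Il1r2 than Granulo_1 with Granulo_2 in brain at 72 h (41.9 against 39.8%) and control pia (82.3 against 4.57%). The same held for the 14 UMIs of control brain (78.6 against 0%). In dura, and in brain and pia at 24 h, Granulo_1 with Granulo_2 held more, though in pia by 47.3 against 44.6%.

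**Figure D4:**
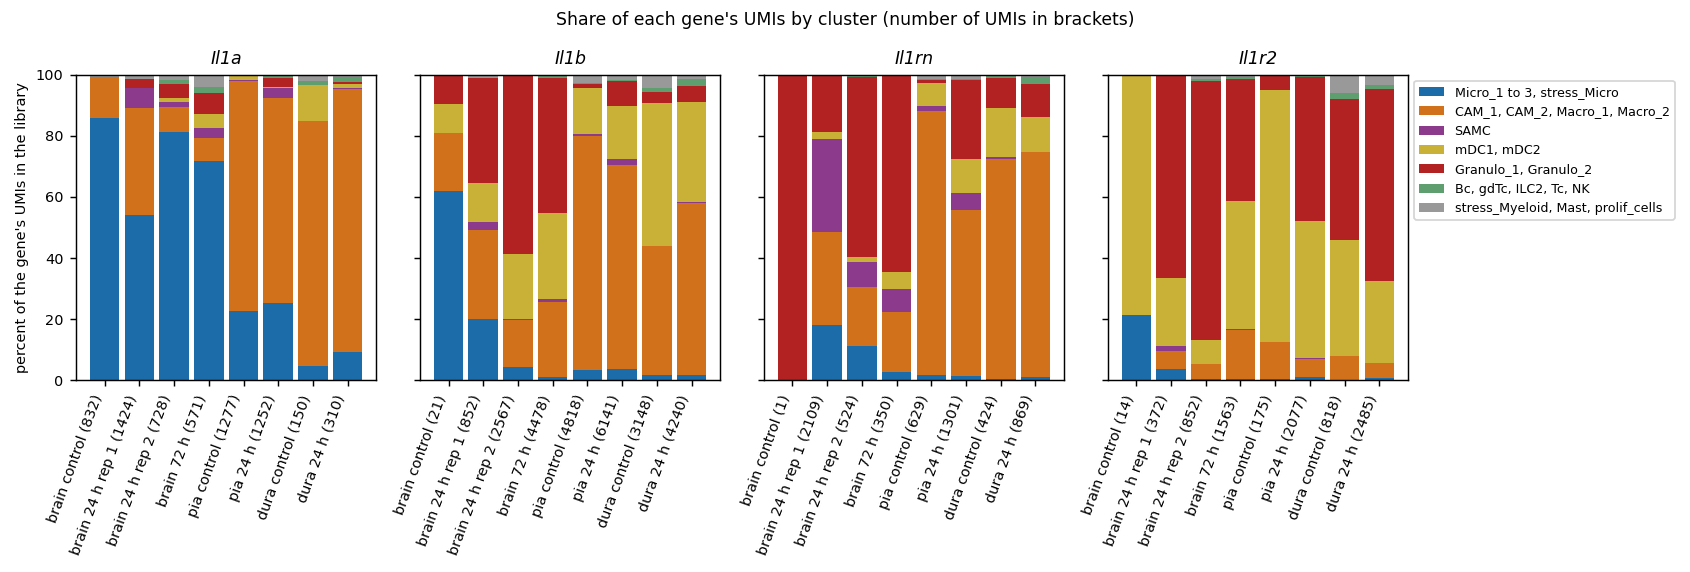
Percent of the UMIs of Il1a, Il1b, Il1rn and Il1r2 (vertical axis, stacked to 100%) held by groups of clusters (colors) in each library (horizontal axis, with the gene's UMIs in the library in brackets; Il1rn in control brain is 1 UMI). Microglia clusters hold 85.7% of Il1a in control brain, where they hold 87.7% of all UMIs. Granulo_1 with Granulo_2 hold 66.4 and 84.5% of Il1r2 in brain at 24 h and 39.8% at 72 h, where mDC1 with mDC2 hold 41.9%.

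Il18 was spread over myeloid clusters at low levels. The first 4 clusters, CAM_1 (39.1 ± 17.7 CPM (SD, n = 8)), Granulo_1 (38.8 ± 20.1 CPM (SD, n = 7)), Micro_1 (35.8 ± 26.3 CPM (SD, n = 7)) and CAM_2 (35.2 ± 15.2 CPM (SD, n = 8)), did not differ beyond their spread, and B cells held 9.71 ± 15.1 CPM (SD, n = 6). Micro_1 held 66.3 and 68.9 CPM in control brain and 24 h replicate 1 and 16.1 and 16.7 CPM in 24 h replicate 2 and at 72 h. In pia it held 38.3 and 44.04 CPM. Il18bp was low in every library, between 2.58 and 16.7 CPM in all annotated cells. Its first clusters were Granulo_2 (24.8 ± 16.2 CPM (SD, n = 6)), CAM_2 (21.1 ± 11.2 CPM (SD, n = 8)) and SAMC (17.7 ± 10.6 CPM (SD, n = 4)), and after thinning to 1000 UMIs 2.29 ± 1.28% (SD, n = 8) of CAM_2 cells had a UMI, the highest mean share of the clusters with 3 or more libraries. In all cells of brain it went from 2.58 CPM in control to 6.88 and 5.05 CPM at 24 h and 12.7 CPM at 72 h, the last 4.93 (95% interval 3.04 to 8.49) times control.

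Nlrp3, the sensor, had its highest mean in stress_Myeloid (589 ± 313 CPM (SD, n = 3)). Micro_3 (416 ± 318 CPM (SD, n = 6)), Micro_2 (341 ± 157 CPM (SD, n = 6)), CAM_1 (285 ± 120.5 CPM (SD, n = 8)) and Macro_2 (228 ± 130.3 CPM (SD, n = 8)) followed. CAM_1 was above Macro_2 in 7 of 8 libraries. In their common libraries stress_Myeloid was above Micro_3 in 1 of 3, with a mean difference of -33 CPM, so its lead in the mean is not one over Micro_3. Micro_3 held 161 CPM in control brain, 285 and 326 CPM at 24 h, 181 CPM at 72 h and 537 and 1004 CPM in control and 24 h pia. Over all microglia clusters of brain Nlrp3 was 139 CPM in control, 218 and 277 CPM at 24 h and 188 CPM at 72 h. Both 24 h libraries lay above control, by a factor of 1.57 (95% interval 1.44 to 1.73) and 2.0 (95% interval 1.8 to 2.22). In Granulo_2 Nlrp3 followed the tissue split of Il1b, with 242, 199.6 and 179.5 CPM in brain at 24 h and 72 h and 11.6 and 20.3 CPM in dura. Pia at 24 h lay between them at 84.1 CPM.

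The caspases and the adaptor were read in nearly all clusters. Casp1 was led by Granulo_1 (66.3 ± 34.2 CPM (SD, n = 7)), which was above CAM_2 (57.6 ± 34.3 CPM (SD, n = 8)) in 7 of 7 libraries although their SDs overlap, and T cells (Tc) still held 36.9 ± 24.3 CPM (SD, n = 8). In Granulo_1 it was 57.4, 29.6 and 28.1 CPM in brain at 24 h and 72 h, 122 and 64.5 CPM in pia and 98.8 and 63.9 CPM in dura. Casp4 was led by Micro_2 (132 ± 75.5 CPM (SD, n = 6)), above stress_Myeloid in 3 of 3 libraries. Micro_2 held 70.4 CPM in control brain, 57.2 and 178 CPM at 24 h and 113 CPM at 72 h, so the 24 h replicates lay on either side of control. The 2 libraries with the shorter gene list were thus the higher ones. Micro_1 showed the same split (39.1 and 36.4 against 152 and 72.5 CPM), as did Micro_3 (42.9 and 38.4 against 77.03 and 58.6 CPM). At 72 h, time and library set cannot be told apart for these levels. Pycard was led by prolif_cells (462 ± 182 CPM (SD, n = 3)) and Granulo_1 (441 ± 163 CPM (SD, n = 7)), followed by Micro_1 (354 ± 94.5 CPM (SD, n = 7)) and SAMC (349 ± 80.04 CPM (SD, n = 4)). In Micro_1 Pycard was 327 CPM in control brain, 356 and 259 CPM at 24 h and 496 CPM at 72 h. In pia it was 229.8 and 365 CPM. At 1000 UMIs per cell 32.1 ± 8.3% (SD, n = 6) of Granulo_1 cells and 13.3 ± 2.46% (SD, n = 5) of B cells had a Pycard UMI.

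Within Granulo_2 of brain 24 h replicate 2, the larger set of such cells at 24 h in brain, Il1r2, Nlrp3 and Il1rn were counted more often in cells that also had Il1b. After thinning to 1000 UMIs, Il1r2 was counted in 81.5% of the cells with an Il1b UMI and 33.3% of those without, Nlrp3 in 45.7% of the cells with an Il1b UMI and 5.21% of those without and Il1rn in 35.9% of the cells with an Il1b UMI and 5.21% of those without. At 72 h Il1r2 was counted in 56.8% of the cells with an Il1b UMI and 38.8% of those without and Nlrp3 in 24.3% of the cells with an Il1b UMI and 7.14% of those without. In mDC2 of pia at 24 h Nlrp3 was counted in 8.04% of the cells with an Il1b UMI and 1.35% of those without. Before thinning, Nlrp3 had 51 UMIs in all 190 cells of this cluster there, so this contrast rests on few counts. Cells of 1 library are not replicates, and these shares carry no test.

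Several receptors were led by lymphoid clusters. Il1r1, the signaling receptor for both ligands, was led by gamma-delta T cells (gdTc) at 57.1 ± 44.1 CPM (SD, n = 4), and its co-receptor Il1rap by Granulo_2 at 93.8 ± 85.4 CPM (SD, n = 6). The interleukin-18 receptor chains were led by gdTc for Il18r1 (408 ± 226 CPM (SD, n = 4)) and NK cells for Il18rap (102 ± 59.96 CPM (SD, n = 6)). Il1rl1, the receptor for interleukin-33, was led by innate lymphoid cells (ILC2) at 369.6 ± 129.9 CPM (SD, n = 5) and was also on their marker list. Irak2, a kinase below these receptors, was led by gdTc (237 ± 122 CPM (SD, n = 4)), and Myd88, their adaptor, by stress_Myeloid (127 ± 101 CPM (SD, n = 3)) and mDC2 (120.4 ± 55.6 CPM (SD, n = 6)). Of 10 names of other ligands 6 were in the files, and Il1f9 (interleukin-36 gamma) was the one with a clear source, Granulo_2, at 316 ± 389.7 CPM (SD, n = 6). Its range there, from 72.3 to 1061 CPM, was wide. Among 18 other inflammasome genes Casp8, a caspase of cell death receptors, was led by Micro_2 (132 ± 46.1 CPM (SD, n = 6)), and the DNA sensor Aim2 by Micro_3 (57.3 ± 41.7 CPM (SD, n = 6)) and Micro_2 (56.6 ± 23.6 CPM (SD, n = 6)). The ATP-gated channel P2rx7 was led by Micro_2 (144 ± 97.6 CPM (SD, n = 6)) and Gsdmd, whose product forms the pore of pyroptosis, by Micro_1 (71.8 ± 18.02 CPM (SD, n = 7)). Ninj1, which acts in rupture of the plasma membrane, was led by Granulo_1 (619 ± 352 CPM (SD, n = 7)) and CAM_1 (567 ± 405 CPM (SD, n = 8)).

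The genes whose pattern over 112 sums of a library and a cluster was most like that of a member, among 7975 genes with a mean of 10 CPM or more, were found by Pearson's r of log2(CPM + 10). The sums share libraries, depth and cells, so r is a description. For Il1a they were Gpr84 (r = 0.87), Ccl3 (0.85) and Trim47 (0.81), and for Il1b they were Ehd1 (0.82), Ifitm2 (0.80) and Ifitm3 (0.77). For Il1rn they were Slc7a11 (0.88), Cd14 (0.74) and Ccr1 (0.74), and for Il1r2 Mcemp1 (0.88), Ifitm6 (0.85) and Trem1 (0.85). Il18 was nearest to Asah1 (0.84), Cmtm3 (0.83) and Zeb2os (0.81), and Il18bp to Cd300ld (0.62), Plin2 (0.57) and Hacd4 (0.57), with lower r. Nlrp3 was nearest to Tlr2 (0.85), Nfe2l2 (0.81) and Lacc1 (0.79), and Casp4 to Sbno2 (0.71), Nlrp3 (0.70) and Lacc1 (0.70). Casp1 was nearest to Hprt (0.72), Vps26a (0.68) and Capza2 (0.67), and Pycard to Erp29 (0.68), Rnh1 (0.67) and Ssr4 (0.66). Nlrp3 was the only member found among the nearest 3 genes of another member.

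The question whether a gene shifted at 24 h in common over brain, pia and dura was tested with edgeR's quasi-likelihood test over the 7 control and 24 h libraries, with tissue as a term, and calls needed a fold of 2 or more and an adjusted p (Benjamini-Hochberg) below 0.05. In all annotated cells 0 of 10 members were called, where 0% of 11945 genes were called either way (409 genes had an unadjusted p under 0.05, and DESeq2 called 61). Il1r2 had the largest estimate, a log2 fold of 3.08 ± 0.90 (SE) at an adjusted p of 0.988, with 24 h above control in 4 of 4 pairs of libraries. Il1rn followed at 2.06 ± 1.82 (SE) (adjusted p = 0.988, 4 of 4 pairs) and Il1b at 1.34 ± 1.51 (SE) (adjusted p = 0.988, 2 of 4 pairs). Both rested on single libraries: with 1 library left out in turn, Il1rn ran from 0.53 (without control brain) to 4.39 (without control pia) and Il1b from -0.12 to 3.04 (without the same libraries), and Il1r2 from 2.07 to 4.09. The mean Il1b of the libraries was 461 CPM in control and 451 CPM at 24 h, on the other side of 0 from the fitted fold, because the fit weighs ratios within each tissue. A p that misses the threshold with 1 library for most groups does not show that levels were alike. DESeq2 called Il1r2 (adjusted p = 0.00145), and the fit without a filter on low counts called Il1r2 (adjusted p = 9.07e-06) and Il1rn (adjusted p = 0.0428). These calls were among 61 genes called by DESeq2 and 184 called without the filter.

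Within clusters, 4 had at least 30 cells in all 7 libraries. No member was called in CAM_1 (10 tested, 0% of 7537 genes called, 445 at an unadjusted p under 0.05, 22 called by DESeq2) or CAM_2 (8 tested, 0.0207% of 4837 genes called). The same held in Macro_2 (10 tested, 0% of 8245 genes called, 332 at an unadjusted p under 0.05, 5 called by DESeq2) and Tc (4 tested, 0% of 4712 genes called, 84 at an unadjusted p under 0.05, 0 called by DESeq2). The largest estimates were those of Il1rn in CAM_2, 3.42 ± 0.80 (SE) on the log2 scale (edgeR adjusted p = 0.318), and of Il1r2 in CAM_1, 2.50 ± 1.19 (SE) (adjusted p = 0.829). Il1r2 in CAM_1 had 0, 2 and 4 UMIs in control brain, pia and dura. At 24 h it had 7 and 15 UMIs in brain (4.66 and 62.4 CPM), where T cells had 0 and 1. In pia and dura at 24 h it had 31 and 9 UMIs. These were 16.9 and 11.3 CPM, against 21.8 and 18.2 CPM in T cells. The part of free RNA in this estimate was not tested. Il1rn in CAM_2 had 0 UMIs in the 171 cells of control brain, where a 0 allows 3 counts. In brain at 24 h it was 170.5 and 124 CPM. In pia it was 96.8 CPM at 24 h against 6.3 CPM in control, and in dura 40.1 against 22.5 CPM. It was higher at 24 h in 4 of 4 pairs. Il1rn in CAM_2 was called without brain 24 h replicate 2 (adjusted p = 0.0037), where 204 genes were called in all. It was also called without the filter (adjusted p = 0.000173), which raised the number of genes called as well. Il1r2 in Macro_2 was estimated at 1.86 ± 0.51 (SE) (edgeR adjusted p = 0.651). In control brain it had 0 UMIs in only 35 cells. A sum of 0 was taken to allow 3 counts, so the size of its difference in brain is poorly known. Its levels in brain at 24 h were 82.1 and 55.1 CPM. In pia it was 52.3 CPM at 24 h against 7.91 CPM in control, and in dura 70.7 against 37.4 CPM. Il1r2 in Macro_2 was called without brain 24 h replicate 2 (adjusted p = 0.00131), where 200 genes were called in all. Casp1 was estimated lower at 24 h in CAM_1, CAM_2 and Macro_2, at -0.91 ± 0.46 (SE), -1.03 ± 0.42 (SE) and -0.89 ± 0.39 (SE), with edgeR adjusted p-values of 0.829, 0.57 and 1.0. Of the other pathway genes, 0 of 16 tested for receptors and signaling, 0 of 2 other ligands and 0 of 15 other inflammasome genes were called in all annotated cells, as were 0 of 15 immediate early and 0 of 6 heat shock genes. None of these lists had a called gene in the 4 clusters.

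**Figure D5:**
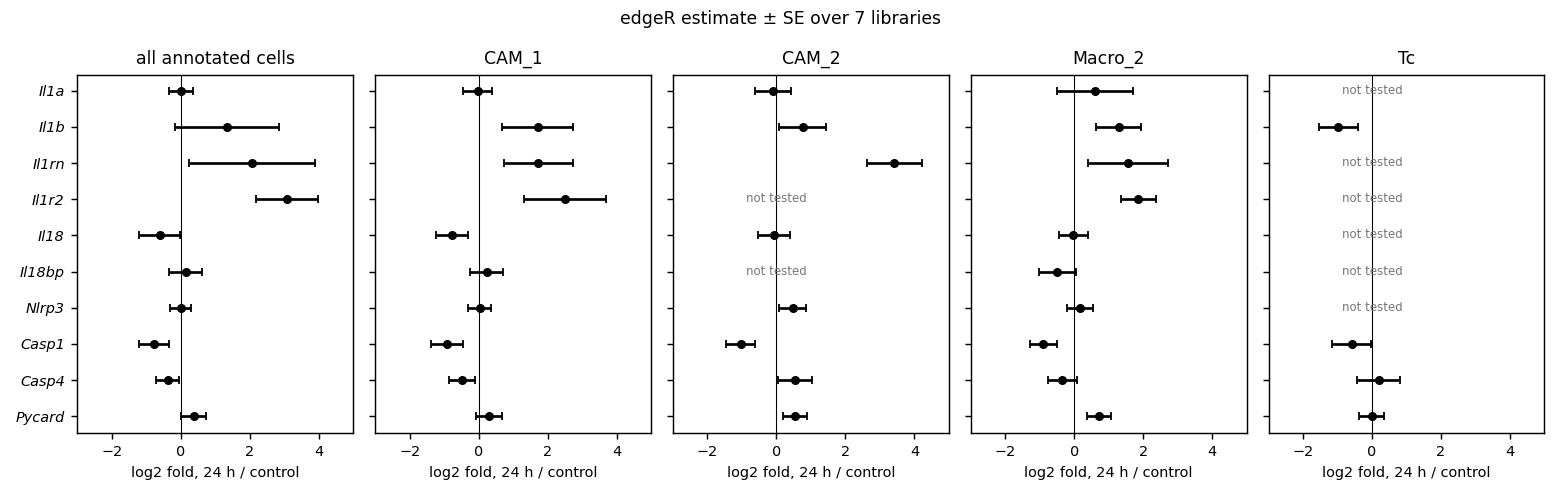
Log2 fold at 24 h against control (horizontal axis, points, with bars for the SE) for the 10 genes (vertical axis), fitted over 7 libraries in all annotated cells and in CAM_1, CAM_2, Macro_2 and Tc; genes that failed the filter on low counts are marked as not tested. Il1r2 in all annotated cells (3.08) and Il1rn in CAM_2 (3.42) lie farthest from 0, and none was called.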

How the data were processed

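Sorted leukocytes of 8 libraries were measured by droplet single-cell RNA-seq. The authors made the deposited UMI counts with Cell Ranger 6.0 against mm10 and left them unnormalized, and per the file headers a further table names the cluster of every cell kept after filters on genes, mitochondrial share and doublets (scDblFinder). All 32457 annotated cells were matched, by barcode, and 10 genes by Ensembl identifier. Samples were grouped by their labels.

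UMIs were summed per library and cluster and divided by the summed UMIs. Levels carry exact Poisson and shares exact (Clopper-Pearson) 95% intervals, which cover counting error only, and a sum of 0 was taken to allow 3 counts. Cells were thinned at random to 1000 UMIs, which cells with fewer cannot give, so shares of cells cover only the deeper cells of a cluster. The sums of 7 libraries were fitted by the robust quasi-likelihood test of edgeR 4.0.16 (two-sided, tissue as a term, TMM scaling, low counts removed with filterByExpr) in R 4.3.3, with DESeq2 1.42.0 as the other tool. SEs are the log2 fold divided by the square root of F. Other steps used Python 3.11.15, pandas 2.3.3 and scipy 1.17.1. Named genes were all members, the called pathway genes and the leading ones by cluster, and the 3 genes nearest to each member. Positions came from GENCODE M21 and promoters from RefSeq, both on GRCm38.

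The members and gene lists were chosen with earlier results of these data known. 1 microglia marker of the list is not reported here, and the sums leave it out. Chosen after values were seen were the minimum of 3 libraries in the cluster orders, the grouping of clusters for shares, the sums over microglia clusters, the pairs for co-detection, the pathway genes named by their leading cluster, the use of intervals that do not overlap for barcodes without a cluster, and the alternative with the 6 libraries of the longer gene list. The fit was tested on simulated data: with moderate changes the fit over all annotated cells made no calls, larger changes were added after that and were called in part, and the 4 clusters gave calls in both sets, so a lack of calls in all annotated cells says little about moderate changes.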

Additional observations from a re-analysis of the deposited data

Results flagged for a closer look

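For 4 genes every 24 h library of 1 tissue lay above the control of that tissue in all annotated cells and every 24 h library of another tissue below it, however slightly. These differences rest on 1 or 2 libraries a side and were not tested. For Il1b the mean log2 ratio in brain was higher than that in pia by 6.05 and than that in dura by 6.07, with ratios of 5.02 and 6.98 in brain, -0.05 in pia and -0.07 in dura, the last 2 close to no change. For Nlrp3 brain was higher than pia by 0.68 and than dura by 0.49, with -0.23 in pia and -0.03 in dura, where the ratio to control was 0.98 (95% interval 0.886 to 1.08). For Il18bp brain was higher than pia by 1.92, and pia minus dura was -0.85. For Il1a pia minus dura was -0.98, with -0.43 in pia and 0.55 in dura.

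Barcodes without a cluster name also held these genes above the level of such barcodes in the control of the same tissue, with Poisson intervals that did not overlap. These intervals cover counting error only and not the spread between libraries. In control brain the 295 such barcodes held 3.24 CPM of Il1b, 1.08 of Il1rn and 2.16 of Il1r2, near the lower limit of the counts. Il1b was at 68.7, 52.4 and 199 CPM in brain 24 h replicates 1 and 2 and at 72 h, and Il1rn at 163, 28.9 and 11.6 CPM. Il1r2 was at 38.00, 28.3 and 63.3 CPM in these libraries and at 177 CPM in pia and 189 CPM in dura at 24 h, against 30.1 and 76.5 CPM in their controls. Il18bp was at 10.99 CPM in brain at 72 h (control 2.16) and Nlrp3 at 186 CPM in brain 24 h replicate 1 (control 122). Pycard was at 409 CPM in brain 24 h replicate 1 (control 292), 277 CPM in pia (control 141) and 232 CPM in dura (control 150.3) at 24 h. What these barcodes hold was not tested.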

How the results depend on the processing

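No paired analysis was possible because no 2 groups share more than 1 replicate number. Genes called at 24 h in all annotated cells, CAM_1, CAM_2, Macro_2 and Tc were 0, 0, 1, 0 and 0. DESeq2 called 61, 22, 2, 5 and 0, and no filter on low counts gave 184, 56, 50, 33 and 1. Leaving out 1 library gave 0 to 52, 0 to 370, 0 to 204, 0 to 200 and 0 to 10, the highest each time without brain 24 h replicate 2, 1 of the 2 libraries with the shorter gene list. Summing the brain 24 h libraries called 1 gene in all annotated cells, and CAM_2 had 0 with no tissue term or without both dura libraries. Members called were 1 (Il1r2) with DESeq2 and 2 (Il1r2, Il1rn) with no filter in all annotated cells, and in CAM_2 1 (Il1rn) with no filter. Leaving out 1 library called 0 to 1 members in CAM_2 and in Macro_2 (Il1rn and Il1r2, without brain 24 h replicate 2). Of 516 member estimates under alternatives, 451 kept direction and side of the threshold, 6 became called, at the adjusted p-values given in the report, and 59, none of them called, changed sign; the causes were not tested. In all annotated cells the log2 fold of Il1a became -0.0015 (DESeq2), -0.027 (brain 24 h summed), -0.25 (no tissue term) and -0.23 (without both dura libraries), and that of Nlrp3 0.10 (library size alone), 0.0023 (without both dura libraries) and 0.0066 (without Granulo_1 and Granulo_2). With no tissue term Il1b became -0.21 and Il18bp -0.40, in CAM_1 Il18bp -0.018 and Nlrp3 -0.093, in CAM_2 Il1a 0.058, in Macro_2 Nlrp3 -0.21 and in Tc Pycard 0.23. Without both dura libraries Nlrp3 in CAM_1 became -0.011 and Pycard in Tc 0.29. Il1a became 0.037 in CAM_2 and Pycard 0.025 in Tc with DESeq2, and with library size alone Il1a became 0.043 in CAM_1 and 0.0038 in CAM_2 and Il18 0.025 in Macro_2. With no filter Il1a in CAM_1 became 0.0070 and Il18 in CAM_2 0.025. With 1 library left out in turn, estimates that changed sign ran, in all annotated cells, from -0.24 to 0.23 (Il1a), -0.12 to 3.04 (Il1b), -0.37 to 0.60 (Il18bp) and -0.19 to 0.13 (Nlrp3). In CAM_1 they ran from -0.43 to 0.28 (Il1a) and -0.075 to 0.16 (Nlrp3), in CAM_2 from -0.32 to 0.34 (Il18) and -0.33 to 0.28 (Il1a), and in Tc from -0.16 to 1.19 (Casp4) and -0.24 to 0.28 (Pycard). In Macro_2 they ran from -0.15 to 1.55 (Il1a), -0.10 to 0.047 (Il18), -0.064 to 0.41 (Nlrp3) and -0.99 to 0.081 (Il18bp).

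The leading cluster was unchanged for 5 of 10 members with at least 10 cells and for 5 with cells thinned to 1000 UMIs. After thinning, Il1rn was led by SAMC in place of Granulo_2. Nlrp3 was led by Micro_3 in place of stress_Myeloid both after thinning and with at least 10 cells. By the mean over cells of each cell's CPM, Il1b was led by Granulo_2 in place of mDC2 and Il18 by Granulo_1 in place of CAM_1. Leaving out 1 library changed it for Il18 (without control brain, control dura, dura 24 h or pia 24 h), Pycard (without control dura, control pia, dura 24 h or brain 72 h), Nlrp3 (without control pia, brain 24 h replicate 2 or pia 24 h) and Il18bp (without brain 24 h replicate 1), whose first clusters lay close together. With the 6 libraries of the longer gene list, an alternative chosen after seeing the data, Nlrp3 was led by Micro_3 and Pycard by Granulo_1. The cluster with the most positive cells was the same for 3 members at 500 UMIs and for 3 without thinning, and 18 of 30 similar genes remained among the nearest 3 at log2(CPM + 1). Nlrp3 in stress_Myeloid was 939 CPM in thinned cells, a value from 1 library. Without Granulo_1 and Granulo_2, Il1r2 in brain differed by 2.79 (24 h minus control) and 1.92 (72 h minus 24 h) on the log2 scale, Il18bp by 1.42 and Nlrp3 by -1.43 (both 72 h minus 24 h). Low counts limit the ratios of Il1b, Il1rn and Il1r2 to control brain, with 21, 1 and 14 UMIs there.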
